A study of Mus musculus with 2 samples.

Results

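The cells described here were 93 cells that met a rule for solitary chemosensory, tuft-like cells of the adult mouse vomeronasal organ (VNO). They were found among 18704 filtered cells and 24084 deposited barcodes. A barcode was taken as such a cell when at least 2 of the 5 genes *Gnat3*, *Gnb3*, *Lrmp*, *Ovol3* and *Trpm5* were detected with at least 3 molecules in sum, when *Ptprc* (the leukocyte gene CD45) had 0 molecules and when the V1R receptor genes together had fewer than 10. The cells also had 200 to 9000 genes and at most 10% mitochondrial molecules. The name tuft-like is used for all 93, also for 8 cells with only 3 or 4 molecules of the 5 genes, whose identity was not tested. The VNO came from untreated wild-type C57BL/6J males at P60, 5 mice in total, in 2 samples, and which mice went into which sample was not given in the sources used here. Each sample was digested with papain and collagenase, frozen as a cell suspension and captured as 1 droplet library aimed at 10000 cells, in which every captured mRNA molecule carries a unique molecular identifier (UMI), so that a UMI stands for 1 molecule. All mice formed 1 condition, so the comparisons below are between cell types and not between treatments.

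Solitary chemosensory cells are epithelial cells scattered through the airway and nasal lining. They use the transduction cascade of sweet, umami and bitter taste, in which a receptor acts through the G protein gustducin on a phospholipase C, calcium is released from stores and a monovalent cation channel opens. They belong with the tuft cells of gut, trachea and thymus, which depend on the transcription factor Pou2f3 and are known for releasing acetylcholine, leukotrienes and interleukin 25. In the VNO they sit in the non-sensory epithelium, apart from the vomeronasal sensory neurons (VSNs).

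Library 1 held 52 of the 93 cells and library 2 held 41, which were 0.52% (95% exact binomial interval 0.388 to 0.681) and 0.471% (0.339 to 0.639) of the filtered cells of each library. All binomial intervals given here cover counting error only. The tuft-like cells had a median of 14311 UMIs (901 to 47282) and 3585 genes (586 to 6277), against a median of 6534 UMIs in all other filtered cells. The libraries had medians of 5036 and 5261 UMIs per barcode before the filter, and 33 barcode sequences occurred in both libraries, 1 of them in a tuft-like cell. No tuft-like cell (0 of 93) was among the 212 and 171 barcodes that a doublet caller marked in the respective libraries. The caller marked 2.12% and 1.97% of cells against the expected rate of 8% it was given, and it passed tuft-like cells with up to 60 *Cyp2a5*, 59 *C1qa* or 8595 *Lcn3* UMIs, so the 0 says little about doublets.

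The 5 genes that chose the cells are given as a description, with no test. Levels are given as CPM, the UMIs of a gene per 1000000 summed UMIs of a cell group in a library. *Gnat3*, the gustducin alpha subunit, was at 2841 CPM in library 1 and 2341 CPM in library 2, with UMIs in 95.7% of the cells. *Gnb3*, the beta subunit that pairs with gustducin, was at 2291 and 1980 CPM (95.7% of the cells). *Lrmp*, a membrane protein of the endoplasmic reticulum that binds inositol trisphosphate receptors, was at 2496 and 2091 CPM (94.6%). The zinc-finger factor *Ovol3* was at 1237 and 803 CPM (90.3%), and *Trpm5*, the cation channel that depolarises taste cells, was at 302 and 322 CPM (88.2%). Most cells carried the whole set, with all 5 genes in 78 cells (41 and 37 by library), 4 genes in 3, 3 genes in 6 and 2 genes in 6.

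**Figure D1:**
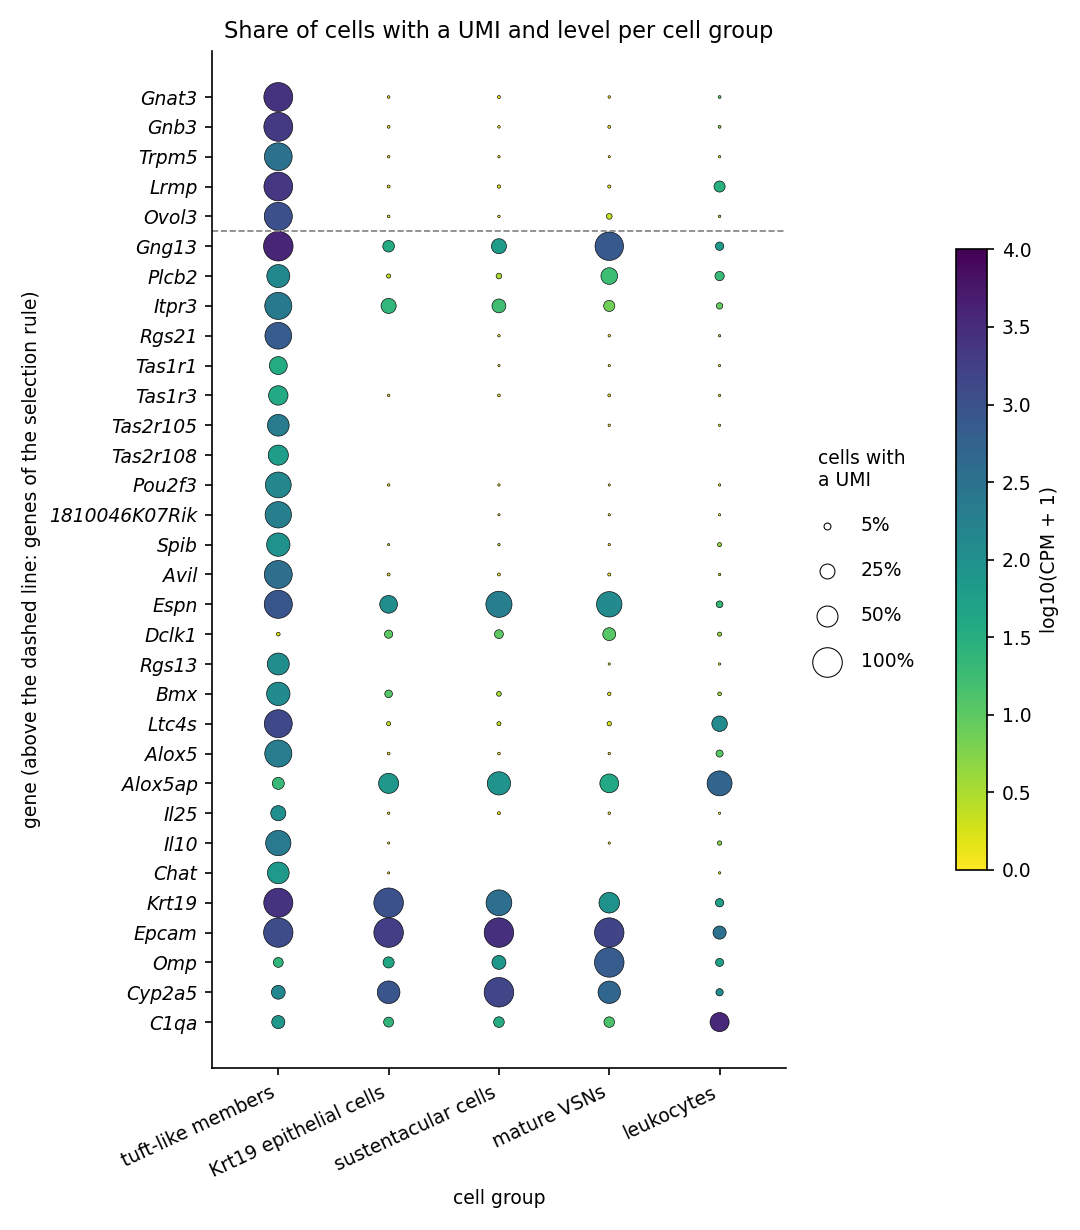
Levels of 32 genes (rows) in the tuft-like cells and 4 other cell groups (columns), both libraries pooled. The area of a dot is the share of cells with a UMI, the colour is log10(CPM + 1), and the genes of the rule stand above the dashed line; *Gng13* had UMIs in 100% of the tuft-like cells and *Dclk1* in 1.08%.

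The label was set beside 13 other tuft-cell genes that the rule did not use (among them *Pou2f3*, *Avil*, *Sh2d6*, *Sh2d7*, *Rgs13*, *Bmx*, *Il25*, *Gng13*, *Plcb2*, *Dclk1*, *Alox5ap* and *Ltc4s*). The lists were chosen with earlier results of these data known, so this is a description and no independent check. *Gng13* was in all 93 cells and gave 1 of the genes counted in each. The shares below are not adjusted for the depth of the groups. The tuft-like cells held a median of 7 of them (1 to 11), and 85 of the 93 (91.4%) held at least 3. The same number was held by 3.81% of *Krt19* epithelial cells, 5.68% of sustentacular cells, 24.4% of mature VSNs, which themselves use *Gng13*, and 18.5% of leukocytes. Among the 78 cells with all 5 rule genes, 77 (98.7%) held at least 3 of the 13, but among the other 15 cells only 8 did. The 12 cells with 2 or 3 rule genes had a median of 4 UMIs of the rule genes (3 to 62) and 2 of the 13 markers (1 to 5), where the cells with all 5 genes had a median of 134.5 rule-gene UMIs (7 to 362).

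**Figure D2:**
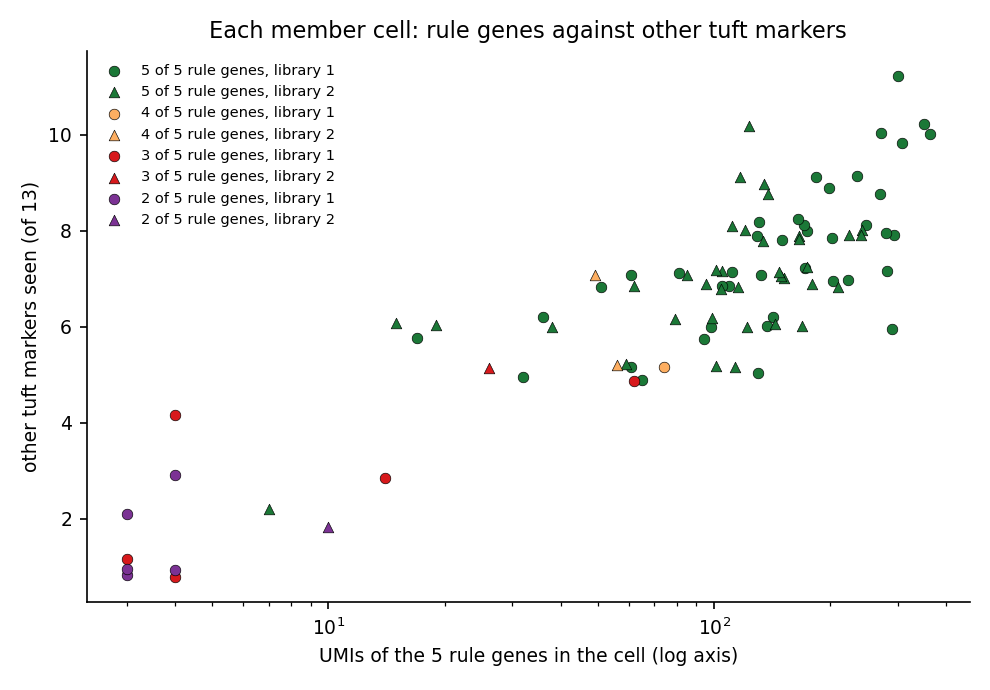
Each point is 1 of the 93 tuft-like cells, with the summed UMIs of the 5 rule genes on the x axis (log scale) and the number of the 13 other tuft-cell genes detected on the y axis (shifted slightly up or down so that points do not cover each other). Colour gives the number of rule genes detected and shape the library; the cells with all 5 genes had a median of 7 of the 13, and the cells with 2 or 3 a median of 2.

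The cells with the fewest rule-gene UMIs came from library 1. The 8 tuft-like cells with 3 or 4 rule-gene UMIs were all in library 1, and all 8 also held UMIs of *C1qa* (a macrophage complement gene) and *Cyp2a5* (a sustentacular enzyme). Of these 8, 5 held *Omp* (the marker of mature olfactory and vomeronasal neurons) and 0 held *Pou2f3*. They had a median of 1 of the 13 other tuft-cell genes and a median of 6 V1R UMIs. Before the limits on *Ptprc* and V1R genes, 49 barcodes of library 1 and 0 of library 2 met the rule with 3 or 4 UMIs. Of the 49, 48 held both *C1qa* and *Cyp2a5*, against 6.72% of all filtered cells of library 1 and 3.48% of library 2. Those limits removed 60 barcodes, all of library 1 and with a median of 3 rule-gene UMIs, 16 of them for *Ptprc* (2 with all 5 rule genes) and 44 for V1R genes alone. Just outside the rule were 18 cells with 2 UMIs of 2 rule genes and 1 cell with at least 3 UMIs of 1 gene. Outside the tuft-like cells, *Gnat3* was found in 145 of 9955 filtered cells of library 1 (1.46%) and 8 of 8656 of library 2 (0.0924%). Whether these low-UMI cells are tuft-like cells was not tested, and results were also computed for the 78 cells with all 5 genes.

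For comparisons between cell types, the UMIs of each group were summed per library, which gave 2 sums a group. The tuft-like cells had 788386 and 623715 summed UMIs. They were compared with 1995 *Krt19* epithelial cells (at least 3 UMIs of *Krt19*, with *Epcam* and without *Trp63*). Another comparison group was 1480 sustentacular cells, the supporting cells of the sensory epithelium (at least 3 UMIs of *Cyp2a5*, with *Fezf2*). The last was 2031 mature VSNs (at least 3 UMIs of *Omp* and at least 10 of V1R and V2R genes). Leukocytes (1409 cells with at least 2 UMIs of *Ptprc*) served as background for free RNA, and they were shallower, with a median of 5132 UMIs a cell against 14311 in the tuft-like cells, 11825 in *Krt19* epithelial cells, 12556 in sustentacular cells and 19834 in mature VSNs. The 3 comparisons share the sums of the tuft-like cells and are not independent of each other. The comparison groups share cells (716 between *Krt19* epithelial and sustentacular cells), so the *Krt19* group is mixed. Listed sustentacular genes summed to 2056 CPM in *Krt19* epithelial cells and to 2506 CPM in sustentacular cells. The p-values measure only the spread between 2 libraries, which may be technical, since nothing in the labels ties a library to separate mice.

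Against *Krt19* epithelial cells, 9.88% of 15760 genes tested were higher in the tuft-like cells and 13.9% were lower (edgeR's quasi-likelihood test, Benjamini-Hochberg adjusted p under 0.05). Against sustentacular cells the shares were 12.3% and 16.2% of 15433 genes, and against mature VSNs 14.3% and 21.0% of 16350 genes. The median log2 change over all genes was -0.16, -0.14 and -0.25 in that order, so it lay slightly under 0 in all 3. Counts of called genes in the lists below stand against these shares. Genes almost unseen in a comparison group reached the minimum of 10 UMIs over the sums only through the tuft-like cells and could only be higher. Their calls are a description, also where they enter the counts of the lists below.

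Each rule gene was tested only in cells chosen by the other 4 genes. All 15 such tests gave a higher level in the tuft-like cells, though the direction of some was fixed beforehand. Log2 changes lay between 9.62 (*Ovol3* against mature VSNs, 70 UMIs there) and 14.23 (*Gnat3* against mature VSNs, 7 UMIs there). Where a comparison group held under 10 UMIs of the gene, the minimum was reached only through the tuft-like cells, which fixed the direction. *Trpm5* was such a gene in all 3 comparisons (5, 3 and 1 UMIs). So was *Gnat3* against sustentacular cells (9 UMIs) and mature VSNs (7). The same held against *Krt19* epithelial and sustentacular cells for *Gnb3* (9 and 6) and *Ovol3* (7 and 3). These tests are a description. For *Gnat3*, 85 cells were chosen by the other 4 genes, and 81 of them (95.3%, interval 88.4 to 98.7) held it. Its level was 2679 CPM in these cells and 0.404 CPM in *Krt19* epithelial cells, a log2 change of 12.48 (SE 0.36, edgeR adjusted p = 6.11e-12). The shares for the other genes were 95.5% for *Gnb3*, 94.4% for *Lrmp*, 90.2% for *Ovol3* and 88.0% for *Trpm5*.

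The taste cascade outside the rule was higher in the tuft-like cells in all 3 comparisons, with 6 of 6 tested genes called each time (9 genes listed, 3 under the count minimum). Against *Krt19* epithelial and sustentacular cells, 3 of the 6 (*Rgs21*, *Tas1r1* and *Tas1r3*) reached the minimum only through the tuft-like cells. Against mature VSNs the same held at least for *Tas1r1*. *Gng13*, the gamma subunit of gustducin, was at 4167 and 3486 CPM in the libraries and was found in all 93 cells. It was at 37.6 and 31.3 CPM in *Krt19* epithelial cells and at 835 and 750 CPM in mature VSNs, so the groups did not overlap. The log2 change was 6.65 (SE 0.19, adjusted p = 2.25e-14) against *Krt19* epithelial cells, 5.86 (SE 0.20) against sustentacular cells and 2.24 (SE 0.17, adjusted p = 7.87e-06) against mature VSNs. Against mature VSNs the call for *Gng13* was lost among cells with at most 5% mitochondrial UMIs (log2 change 0.90, adjusted p = 0.0712), which kept 12 of the 93 tuft-like cells. The 12 cells were of another make-up, with all 5 rule genes in 5 of them and only 2 or 3 in 6, and they included the cell with 8595 *Lcn3* UMIs and a cell with 59 *C1qa* UMIs, which bears on every value given at 5%.

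*Plcb2*, the phospholipase C of taste cells, was at 162 and 101 CPM and found in 60.2% of the tuft-like cells. Both libraries were above all sums of the other groups, with mature VSNs next at 18.4 and 16.1 CPM, and its log2 changes were 6.40, 5.75 and 2.92 against *Krt19* epithelial cells, sustentacular cells and mature VSNs. *Itpr3*, the inositol trisphosphate receptor that releases calcium in taste cells, was at 217 and 261 CPM (83.9% of the cells) against 23.2 and 20.9 CPM in *Krt19* epithelial cells (log2 change 3.28, SE 0.18, adjusted p = 9.79e-11). *Itpr3* was thus also found at a lower level in the other epithelial groups, and *Rgs21* was hardly found there. *Rgs21*, a regulator of G protein signalling known from taste cells, was at 641 and 739 CPM in 81.7% of the tuft-like cells and had 0 UMIs in *Krt19* epithelial cells, at least 6775-fold higher with 3 UMIs over the group as the floor (adjusted p = 1.5e-14). The ATP release channel genes of taste cells were nearly unseen, with *Calhm1* in 1 cell and *Calhm3* in 0 of 93 cells (95% exact binomial interval for cells with a UMI up to 3.89%, which is no limit on cells that express it).

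The umami receptor subunits were both present. *Tas1r1* was at 33.0 and 38.5 CPM in 36.6% of the cells (34 cells), and *Tas1r3* at 35.5 and 40.1 CPM in 43.0% (40 cells). *Tas1r1* had 0 UMIs in *Krt19* epithelial cells, 1 in sustentacular cells and 2 in mature VSNs. *Tas1r3* rose by a log2 change of 7.53 (SE 0.51, edgeR adjusted p = 2.71e-09), 7.15 and 7.60 in the 3 comparisons. *Tas1r2*, the sweet receptor subunit, was not seen in any of the 93 cells. Among the 78 cells with all 5 rule genes, 18 held both *Tas1r1* and *Tas1r3*, where 16.1 would hold both if the genes were unrelated (phi 0.10 over cells, a description that depends on depth).

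Bitter receptors, G protein-coupled receptors of the taste cascade, were found in most of the tuft-like cells. Of 35 *Tas2r* genes in the table, 20 had UMIs in these cells and 16 of those in both libraries, 591 UMIs in all. At least 1 bitter receptor was found in 70 of the 93 cells (75.3%, interval 65.2 to 83.6), against 0.100% of *Krt19* epithelial cells, 0.135% of sustentacular cells, 0.246% of mature VSNs and 0.284% of leukocytes. The 8 bitter receptor genes that reached the count minimum did so through the UMIs of the tuft-like cells, which fixed their direction, and the other 27 were under it.

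A few genes gave most of the bitter receptor RNA. *Tas2r105* gave 52.8% of the UMIs and the top 3 genes gave 78.0%. *Tas2r105* (chr6:131686532-131687495 on the minus strand, mm10) was at 186 and 265 CPM in 53.8% of the cells (50 cells). *Tas2r108* (chr6:40493529-40494541, plus strand) was at 63.4 and 56.1 CPM in 46.2% (43 cells). *Tas2r104* (chr6:131684836-131685744, minus strand) was at 45.7 and 44.9 CPM in 33.3% (31 cells). *Tas2r105* and *Tas2r108* had 0 UMIs in both the *Krt19* epithelial and the sustentacular cells, so *Tas2r105* was at least 2188-fold and *Tas2r108* at least 596-fold higher than in *Krt19* epithelial cells (adjusted p = 1.2e-13 and 7.39e-11). With each cell thinned to 6135 UMIs, *Tas2r105* was still in 44.6% of the tuft-like cells and in 0.0523% of mature VSNs and 0.186% of leukocytes. *Tas2r117* followed in 15.1% of the cells, *Tas2r110* and *Tas2r129* in 11.8% each, *Tas2r118* in 10.8% and *Tas2r137* in 8.6%.

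Single cells often held several bitter receptors. No receptor was seen in 23 cells, 1 gene in 24, 2 genes in 9, 3 in 13, 4 in 6, 5 in 8, 6 in 5, 7 in 3, 8 in 1 and 10 in 1, so 46 of 93 (49.5%) held at least 2. Cells with a receptor had a median of 5.5 receptor UMIs and at most 32. The genes seen were all on chromosome 6, which carries 33 of the 35, and 14 of the 20 lay in its distal cluster of 24 genes (chr6:131629823-133055816).

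**Figure D3:**
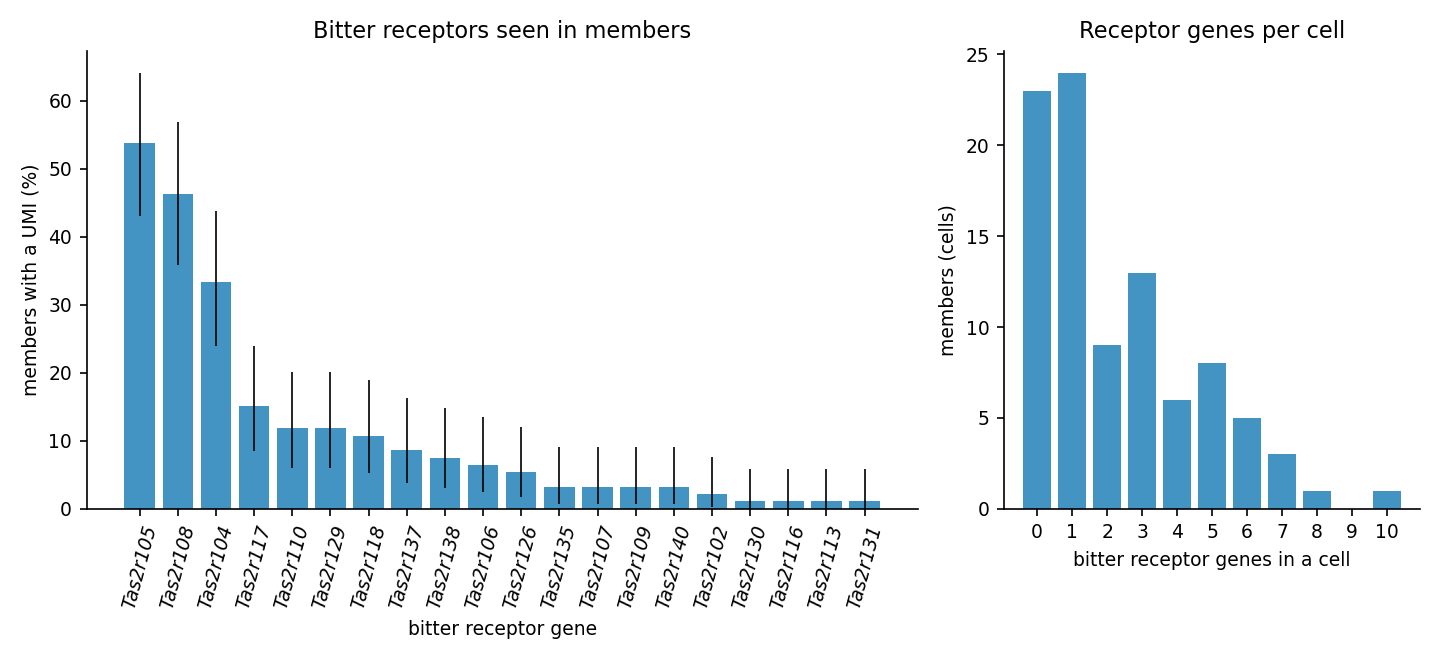
Left, the share of the 93 tuft-like cells with a UMI of each of the 20 bitter receptor genes detected (bars from 0, in percent, with 95% exact binomial intervals). Right, the number of tuft-like cells by the number of bitter receptor genes detected in a cell; 23 cells held none and 46 held at least 2.

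Receptor combinations were not even over the cells. In the 78 cells with all 5 rule genes, all 31 cells with *Tas2r104* also held *Tas2r105* (49 cells), where 19.5 would be met if the genes were unrelated (phi 0.62, and 0.64 and 0.61 within the libraries). The 2 genes lie on the same strand with 787 bases between them, and the source of the *Tas2r104* UMIs in these cells was not tested. *Tas2r105* and *Tas2r108*, which lie far apart, were together in 24 cells where 26.4 would be met (phi -0.13). *Col9a1*, a collagen chain chosen after its values were seen, was in 31 of the 78 cells, 29 of them with *Tas2r105* (19.5 if unrelated, phi 0.52), so that 59.2% of *Tas2r105* cells and 6.90% of the others held it. With *Tas2r104* it was in 24 cells (phi 0.625), 77.4% of *Tas2r104* cells against 14.9% of the others. The cells with *Tas2r105* had a median of 14745 UMIs and those without it 15921.

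The promoters of 4 genes raised in the tuft-like cells are shown because they hold the octamer ATGCAAAT, a motif bound by POU-domain factors such as Pou2f3. Each runs from 250 bases before to 50 bases after the start of the gene in RefSeq (build GRCm38.p6), 5′ to 3′ along the strand of the gene, and capitals mark ATGCAAAT or its reverse complement ATTTGCAT. *Rgs21* lies at chr1:144567618-144567917 (minus strand, match 200 bases before the start), *Tas2r108* at chr6:40493342-40493641 (plus strand, 146 before), the coactivator gene *1810046K07Rik* at chr9:51328869-51329168 (minus strand, 2 matches, the first 86 before) and *Itpr3* at chr17:27057054-27057353 (plus strand, 27 before).
Rgs21: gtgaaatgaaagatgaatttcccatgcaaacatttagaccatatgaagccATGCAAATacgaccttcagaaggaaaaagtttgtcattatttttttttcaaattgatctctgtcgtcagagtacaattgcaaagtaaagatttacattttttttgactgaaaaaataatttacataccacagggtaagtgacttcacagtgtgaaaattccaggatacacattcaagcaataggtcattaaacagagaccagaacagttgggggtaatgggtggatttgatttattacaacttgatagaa
Tas2r108: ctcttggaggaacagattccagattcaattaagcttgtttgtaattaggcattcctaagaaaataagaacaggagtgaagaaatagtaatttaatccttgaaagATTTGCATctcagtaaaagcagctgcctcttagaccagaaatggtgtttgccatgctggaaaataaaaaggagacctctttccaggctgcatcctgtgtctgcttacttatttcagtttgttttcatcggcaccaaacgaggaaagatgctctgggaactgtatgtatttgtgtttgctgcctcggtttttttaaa
1810046K07Rik: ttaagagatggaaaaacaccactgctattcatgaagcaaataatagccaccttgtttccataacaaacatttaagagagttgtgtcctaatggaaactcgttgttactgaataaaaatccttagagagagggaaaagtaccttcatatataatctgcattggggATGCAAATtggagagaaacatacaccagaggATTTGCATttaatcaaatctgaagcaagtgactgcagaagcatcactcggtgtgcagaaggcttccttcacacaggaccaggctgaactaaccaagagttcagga
Itpr3: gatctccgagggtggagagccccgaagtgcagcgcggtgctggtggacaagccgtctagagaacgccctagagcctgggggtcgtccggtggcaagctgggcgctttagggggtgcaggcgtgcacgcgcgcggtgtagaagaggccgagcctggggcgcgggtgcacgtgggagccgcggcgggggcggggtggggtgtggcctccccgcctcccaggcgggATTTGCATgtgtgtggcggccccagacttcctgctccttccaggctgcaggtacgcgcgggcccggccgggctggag

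In the same window, the octamer occurred in 532 of 27025 promoters (1.97%) on either strand. It occurred in 6 of 20 promoters of taste receptor genes seen in the tuft-like cells (30.0%) and in 1 of 13 promoters of bitter receptor genes not seen there (7.69%). Of the 6, only *Tas2r107* lies in the distal cluster of chromosome 6, and the unseen gene with a match, *Tas2r144*, lies outside it. *Tas2r105* and *Tas2r104* were not among the genes with a match. Whether the octamer goes with detection or with position was not tested. By list, with *Rgs21* and *Tas2r108* each in more than 1 list, it was in 2 of 8 of the taste cascade (25%), 1 of 4 of the tuft-cell transcription factors, 3 of 13 of the genes with the largest rises, 0 of 3 rule genes and 0 of 9 of the 13 marker genes. With each gene counted once and without the receptors not seen, it was in 10 of 47 (21.3%). A match describes these letters and is not a mapped binding site.

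The transcription factors of tuft cells split into those that marked the cells and those that did not. *Pou2f3*, on which tuft cells depend, was at 136 and 144 CPM, in 71 of 93 cells (76.3%) and in 84.6% of the cells with all 5 rule genes. It had 4 UMIs in *Krt19* epithelial cells, 2 in sustentacular cells and 1 in mature VSNs, and its log2 change against *Krt19* epithelial cells was 9.71 (SE 0.32, edgeR adjusted p = 7.86e-14). *1810046K07Rik*, the mouse gene for the Pou2f3 coactivator known as Pou2af2, was at 221 and 165 CPM in 79.6% of the cells and had 0 UMIs in *Krt19* epithelial cells (at least 1943-fold higher, adjusted p = 2.23e-13). *Pou2f3* in each comparison, and *1810046K07Rik* against *Krt19* epithelial cells, reached the count minimum only through the tuft-like cells. That fixed their direction, and the calls are a description. *Spib*, an ETS factor also used by B cells and gut M cells, was at 86.3 and 93.0 CPM in 62.4% of the cells (log2 changes 6.86, 6.65 and 10.43).

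*Sox9*, a factor of many epithelial progenitors and glands, was lower in the tuft-like cells than in *Krt19* epithelial cells (34.3 and 64.1 against 138 and 166 CPM, log2 change -1.81, SE 0.23, adjusted p = 7.94e-06). It was also lower than in sustentacular cells (log2 change -1.31) and was not called against mature VSNs. *Gfi1b*, a repressor of blood and gut tuft cells, had 0 UMIs. *Hmx2*, a homeobox gene, had 4 UMIs in 4 cells and 0 UMIs in the 4 other groups, too few to test. Of the factors described so far, 3 were called higher in each comparison, among them *Pou2f3*, whose direction was fixed. Called lower were 1, 1 and 0. 2 further factors, chosen after their values were seen, were *Ascl2* (171 and 136 CPM, 77.4% of the cells, log2 change 6.88 against *Krt19* epithelial cells) and *Foxe1* (98.9 and 96.2 CPM, 63.4%, log2 change 5.88).

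Among genes of the tuft-cell brush border and cytoskeleton, the genes of the actin-binding proteins advillin and espin rose while *Dclk1*, the microtubule-associated kinase widely used to mark tuft cells of the gut, was almost absent. *Avil* (advillin) was at 374 and 333 CPM in 89.2% of the cells against at most 0.505 CPM in any sum of the 3 other groups (log2 changes 9.82, 10.17 and 10.58). *Espn* (espin) was at 913 and 747 CPM against 115 and 107 CPM in *Krt19* epithelial cells (log2 change 2.76, SE 0.17, adjusted p = 7.25e-10). *Dclk1* had 1 UMI in 1 of 93 cells (1.08%, interval 0.0272 to 5.85), while 7.32% of *Krt19* epithelial cells and 18.8% of mature VSNs held it. Its level relative to *Krt19* epithelial cells was 0.0806 (counting interval 0.00203 to 0.453), with an adjusted p of 0.00383 by edgeR, 0.0722 by DESeq2 and 0.0797 in thinned cells. The 7 genes of this list were 2 higher and 3 lower against *Krt19* epithelial cells, 2 and 5 against sustentacular cells and 4 and 2 against mature VSNs. *Vil1* (villin) had 3 UMIs in 2 cells, and the simple-epithelial keratins *Krt18* and *Krt8* were in 98.9% of the cells each.

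Intracellular signalling genes of tuft cells were mostly raised, with 8, 8 and 9 of 10 tested genes higher and 0 lower in the comparisons with *Krt19* epithelial cells, sustentacular cells and mature VSNs (13 listed, 3 under the minimum). Against *Krt19* epithelial cells, *Rgs13*, *Sh2d6* and *Pik3r5* (0, 3 and 3 UMIs there) reached the minimum only through the tuft-like cells, which fixed their direction. *Matk*, a kinase that restrains Src family kinases, was at 208 and 170 CPM in 67.7% of the cells (log2 changes 6.84, 5.94 and 7.05). *Bmx*, a Tec family kinase, was at 107 and 135 CPM in 62.4%, against 10.0 and 10.9 CPM in *Krt19* epithelial cells (log2 change 3.37, adjusted p = 1.85e-10). *Pik3r5*, a regulatory subunit of PI3K gamma, was in 71.0% of the cells, and *Rgs13*, a regulator of G protein signalling, in 54.8% with 0 UMIs in *Krt19* epithelial or sustentacular cells (at least 1115-fold and 953-fold higher). *Sh2d6*, an SH2-domain protein, was in 45.2% of the cells. The adaptor *Fyb* (62.2 and 52.9 CPM, 29.0%) is also a leukocyte gene, and leukocytes had 264 CPM. The receptors for succinate, *Sucnr1*, and short-chain fatty acids, *Ffar3*, had 0 UMIs.

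Genes of eicosanoid synthesis were called in both directions, in the leukotriene arm as in the prostaglandin arm. *Ltc4s*, leukotriene C4 synthase, was at 1410 and 1263 CPM in 89.2% of the cells, against 1.70 and 1.30 CPM in *Krt19* epithelial cells (log2 change 9.63, SE 0.24, adjusted p = 4.3e-15) and 124 CPM in leukocytes. *Alox5*, the 5-lipoxygenase that begins leukotriene synthesis, was at 219 and 202 CPM in 83.9% (log2 changes 9.57, 9.87 and 11.31). *Alox5ap*, the protein that presents arachidonate to 5-lipoxygenase, went the other way, at 15.2 and 24.1 CPM in 16.1% of the cells against 77.1 and 73.2 CPM in *Krt19* epithelial cells and 516 CPM in leukocytes. Its log2 change was -2.12 (SE 0.26, adjusted p = 5.76e-06) against *Krt19* epithelial cells, -2.25 against sustentacular cells and -1.08 against mature VSNs, and the last was 0.32 at 5% mitochondrial UMIs and not called in thinned cells (-0.66), without library 1 of the mature VSNs (-0.95) or without library 1 of the tuft-like cells (-0.79).

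In the prostaglandin arm, *Hpgds*, the haematopoietic prostaglandin D synthase, was at 26.6 and 36.9 CPM in 30.1% of the cells (log2 changes 4.0, 4.27 and 5.58). *Ptges*, a prostaglandin E synthase, was at 20.3 and 25.7 CPM against 170 and 164 CPM in *Krt19* epithelial cells (log2 change -3.03, SE 0.23, adjusted p = 1.62e-08). The cyclooxygenase genes differed as well. *Ptgs1* was at 8.88 and 19.2 CPM and was called higher (log2 changes 1.46, 3.31 and 4.59). The call against *Krt19* epithelial cells was lost with comparison cells meeting only 1 definition (0.40, adjusted p = 0.515), without library 2 of the tuft-like cells (0.90, 0.308), without either library of the other group (0.0913 and 0.0877) and in thinned cells (0.153). For *Ptgs1*, none of the 12 tuft-like cells with at most 5% mitochondrial UMIs held it, and the fitted values there, which depend on the prior count, were -6.99, -4.69 and -5.14. *Ptgs2* was at 5.07 and 6.41 CPM and lower (-2.53, -2.49 and -1.87), the last lost in thinned cells (adjusted p = 0.0906). Over the 8 listed genes, 4, 4 and 5 were called higher and 3, 3 and 3 lower in the 3 comparisons.

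*Il25*, the cytokine by which gut tuft cells activate type 2 lymphoid cells, was held by 24 of 93 cells (25.8%, interval 17.3 to 35.9). It was at 151 CPM in library 1 and 49.7 CPM in library 2, and 1 cell gave 31 of its 150 UMIs (20.7%). Even the lower library lay far above the other groups, with 3, 8 and 5 *Il25* UMIs in *Krt19* epithelial cells, sustentacular cells and mature VSNs (1052-fold against the first, counting interval 353 to 5159). *Il33*, an alarmin of barrier epithelium, was in 4 cells at 7.61 and 1.60 CPM against 52.3 and 52.9 CPM in *Krt19* epithelial cells (log2 change -3.55, adjusted p = 1.34e-06). The receptor chains *Il4ra* (36.8 and 44.9 CPM) and *Il13ra1* (41.9 and 65.7 CPM) were called higher in the 3 comparisons, *Il4ra* by log2 changes of 1.57, 1.51 and 2.50 and *Il13ra1* by 1.03, 1.64 and 1.52. The call of *Il13ra1* against *Krt19* epithelial cells was lost in thinned cells (0.87, adjusted p = 0.0659), with comparison cells meeting only 1 definition (0.58, 0.0925) and at 5% mitochondrial UMIs (0.162). Of the 6 listed genes, 3, 4 and 4 were called higher and 1, 2 and 1 lower; *Tslp* had 1 UMI and *Il17rb* was in 3 cells.

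*Il10*, an anti-inflammatory cytokine usually of leukocytes, was among the largest rises. It was at 269 and 192 CPM in 73.1% of the tuft-like cells (interval 62.9 to 81.8), in like shares of both libraries (73.1% and 73.2%). Leukocytes held it in 1.70% of cells at 4.53 CPM, *Krt19* epithelial cells had 1 UMI, sustentacular cells 0 and mature VSNs 2. Among the 78 cells with all 5 rule genes, 80.8% held it. With each cell thinned to 6135 UMIs, which kept 43 and 40 tuft-like cells, 54.2% of the tuft-like cells and 1.49% of the leukocytes still held *Il10*.

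*Chat*, which makes acetylcholine, was at 58.4 and 77.0 CPM in 53.8% of the cells, with 0 UMIs in sustentacular cells and mature VSNs (at least 564-fold and 1227-fold higher, adjusted p = 2.51e-12 and 6.81e-07) and 1 UMI in *Krt19* epithelial cells. The partner genes were sparse. *Slc18a3*, the vesicular acetylcholine transporter, was in 3 cells and in none of the 4 other groups, and *Slc5a7*, the choline transporter, had 0 UMIs in the 93 cells against 3.20, 6.30 and 3.54 CPM in the other 3 groups (at least 1.51-fold, 2.97-fold and 1.67-fold lower, edgeR adjusted p = 0.0249, 0.00223 and 0.0192, with DESeq2 0.124, 0.0189 and 0.0535, and 0.374, 0.101 and 0.240 in thinned cells). *Slc44a4*, another choline carrier, was at 41.9 and 32.1 CPM in 37.6% of the cells. This list had 1, 2 and 2 genes called higher and 1, 1 and 1 lower of 4 tested (5 listed). The call of *Slc44a4* against sustentacular cells was lost by DESeq2 (adjusted p = 0.0829). By edgeR it was lost with doublets left out (0.0572) and in thinned cells (0.592). Against mature VSNs it was also lost in thinned cells (0.312). Of 6 genes of vesicle release, *Vamp2* was higher than in *Krt19* epithelial cells (141 and 148 against 45.4 and 51.6 CPM, log2 change 1.43) and *Snap25* was at 12.7 and 3.21 CPM against 211 and 229 CPM in mature VSNs (log2 change -4.73), the counts being 1, 1 and 0 higher and 1, 3 and 6 lower.

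Other genes with the largest rises had little to do with taste. *Ly6g6f*, a receptor of the immunoglobulin family known from platelets, was at 159 and 131 CPM in 79.6% of the cells and had 0 UMIs in all 3 comparison groups (at least 1452-fold, 1241-fold and 2701-fold higher). *Themis*, a signalling protein of T cell development, was at 88.8 and 75.3 CPM in 40.9% and also had 0 UMIs in the 3 groups (at least 821-fold, 701-fold and 1527-fold), with *Cd3e* at 0 in the tuft-like cells. *Lipc*, hepatic lipase, was at 611 and 412 CPM in 79.6% (log2 changes 10.51, 10.23 and 11.01). *Sez6*, a neuronal membrane protein, was in 69.9% of the cells, *Cryba2*, a lens crystallin, in 60.2%, *Krt222*, a keratin-like gene, in 61.3%, *Hepacam2*, an adhesion protein, in 83.9% and *Ano7*, of the anoctamin family, in 46.2%. *Ano7* was found in 30.8% of the cells of library 1 and 65.9% of those of library 2.

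2 genes were picked after their values were seen. *Bdnf*, a neurotrophin, was at 55.8 and 43.3 CPM in 33.3% of the cells (log2 changes 5.33, 4.69 and 5.76). *Olfr1410*, an olfactory receptor gene, was in 22 cells (23.7%) at 26.6 and 17.6 CPM and had 0 UMIs in the 3 comparison groups and in leukocytes (at least 224-fold, 192-fold and 418-fold higher).

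**Figure D4:**
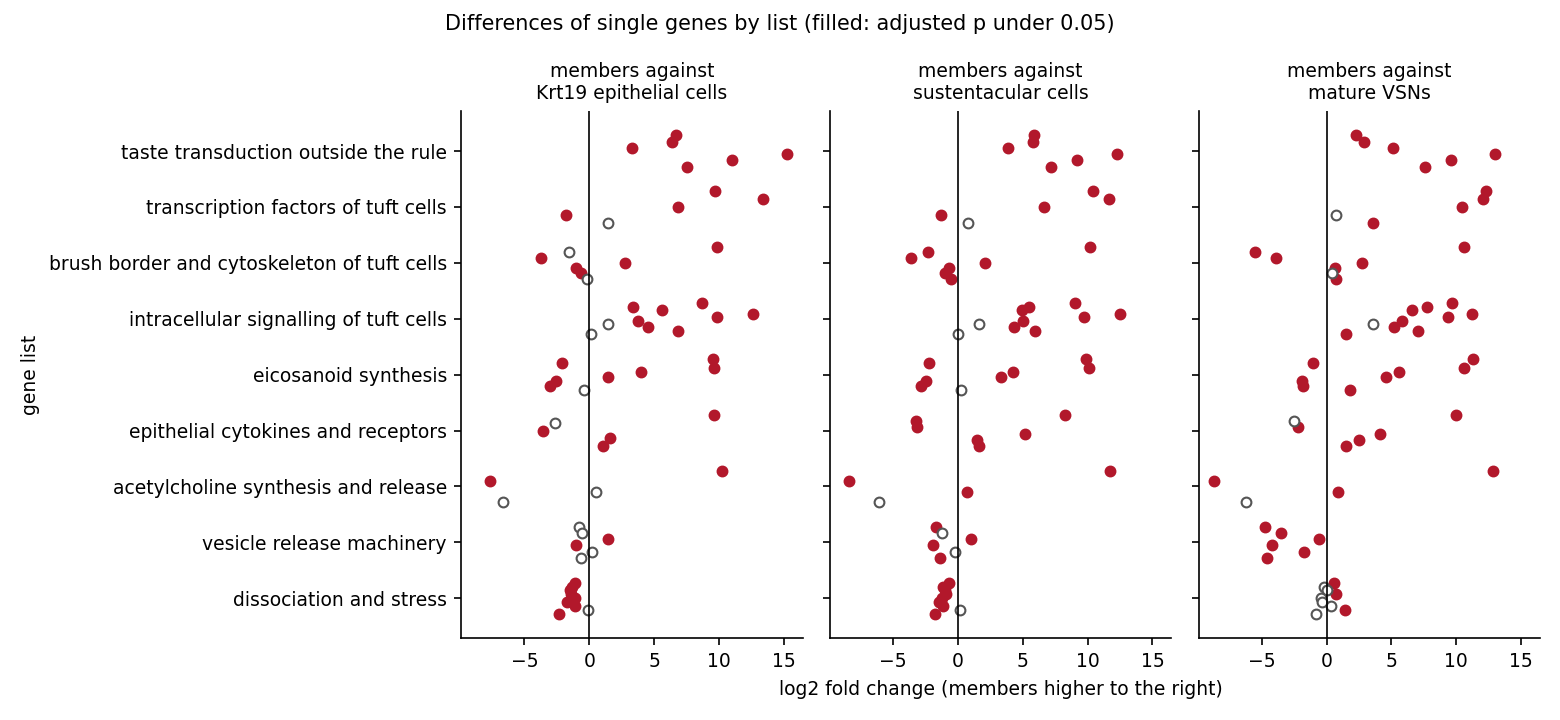
Log2 change of each tested gene between the tuft-like cells and *Krt19* epithelial cells, sustentacular cells or mature VSNs (3 panels, the tuft-like cells being called members), by gene list. Filled points passed an adjusted p under 0.05 in edgeR, open points did not, and values of genes with 0 UMIs in a group depend on the prior count of the fit; all 6 tested genes of the taste cascade lie to the right of 0 in each panel.

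The tuft-like cells carried general epithelial genes. *Krt19* was in 96.8% of the cells at 2643 and 2450 CPM, above sustentacular cells (380 and 362 CPM, log2 change 2.72) and mature VSNs (log2 change 4.71), and *Epcam* was in 98.9%. *Cdh1* (E-cadherin) was at 159 and 172 CPM in 80.6% (log2 changes 0.83, 1.76 and 2.87, the first -0.10 at 5% mitochondrial UMIs, and not called in thinned cells at 0.51, without library 1 of the *Krt19* epithelial cells at 0.74 or with comparison cells meeting only 1 definition at 0.25). General epithelial genes were 1, 2 and 4 higher and 2, 4 and 1 lower in the 3 comparisons. The genes with the largest falls had 0 UMIs in the tuft-like cells. Against *Krt19* epithelial cells they were *Khdc1a* (at least 12.6-fold lower), the squamous keratin *Krt4* (at least 11.6-fold), *Igfbp3*, *Adamts16*, *Krt6a* and *Psca*. Against sustentacular cells they were *Khdc1a* (at least 25.3-fold), *Adamts16*, *Rnf39*, *Sall3*, *Adra1a* and *Dsg3*, and against mature VSNs the neuronal genes *Nhlh1* (at least 35.8-fold) and *Syn1* (at least 24.9-fold), *Bean1*, *Atp8b4*, *Pcdh9* and *Kcnk10*.

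Most lists of other neuronal and epithelial cell types of the VNO had more genes lower than higher. Genes of vomeronasal transduction were 1, 0 and 0 higher and 2, 4 and 6 lower of 7, and *Gnai2*, the alpha subunit of V1R neurons, was at 512 and 438 CPM against 2092 and 2013 CPM in mature VSNs (log2 change -2.15, adjusted p = 8.68e-06). The summed level of 6 neuron genes was 178 and 52.9 CPM in the tuft-like cells against 2726 CPM in mature VSNs, with 0 higher and 4, 6 and 5 lower. Basal-cell genes summed to 97.7 CPM against 2387 CPM in *Krt19* epithelial cells (0 higher, 4, 4 and 1 lower), and sustentacular genes to 278 CPM against 2506 CPM in sustentacular cells (0 higher, 3, 1 and 3 lower). Ionocyte genes summed to 7.61 and 17.6 CPM against 56.9 CPM in *Krt19* epithelial cells (0 higher, 2, 2 and 1 lower), and of the sour-taste genes *Otop1* was lower in each comparison and none was higher. Ensheathing-cell genes summed to 7.08 CPM against 11.1 CPM in mature VSNs, and edgeR called 0 of 4 in each comparison (0, 1 and 1 at an unadjusted p under 0.05, and 0 by DESeq2). Ciliated-cell genes were 0 (also 0 at an unadjusted p under 0.05 and by DESeq2), 4 and 3 higher and 0 lower, at a sum of 126 CPM against 121 CPM in *Krt19* epithelial cells.

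RNA of other cell types moved with some of these results. Gland genes summed to 17673 CPM in library 1 and 2541 CPM in library 2 (3, 1 and 1 higher, 0 lower), and 1 cell gave 84.1% of the *Lcn3* and 82.6% of the *Obp2a* UMIs. Leukocyte genes summed to 200 and 210 CPM against 67.9 CPM in *Krt19* epithelial cells and 11026 CPM in leukocytes, with *Cd3e* at 0 and *Ptprc* at 0 by the rule. Of these, 3, 3 and 4 were called higher, but 1, 1 and 2 among the 78 cells with all 5 rule genes, and 1 cell gave 75.5% of the *S100a8* and 56.2% of the *C1qa* UMIs. Stromal genes summed to 383 and 221 CPM against 110 CPM in *Krt19* epithelial cells (3, 2 and 3 higher, 1, 1 and 2 in the 78 cells), with 81.8% of the *Dcn* UMIs in 1 cell. Genes of neural progenitors were 0, 2 and 2 higher and 1 lower each time, and all 16 *Mki67* UMIs were in 1 cell. The part of these RNAs in the results was not tested.

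The mitochondrial share of the tuft-like cells had the highest median of the groups compared, a description with no test. It was 6.76% (2.22 to 9.97), against 5.64% in *Krt19* epithelial cells, 6.33% in sustentacular cells, 5.25% in mature VSNs, 2.73% in leukocytes and 4.61% in all other cells. Only 12 of 93 cells (12.9%, 7 and 5 by library) were at or under 5%, the limit used by the study, where 56.8% of all other cells were. With all groups held to 5%, 238, 494 and 1312 genes were called in the 3 comparisons, where 3748, 4394 and 5764 were called at 10%. Of the 268 results for named genes, those under the count minimum at 5% could not be recomputed. Of the rest, 129 kept their direction and call, 76 lost the call, 6 turned and 1 gained the call. Among the calls lost by edgeR were *Plcb2* against mature VSNs (adjusted p = 0.114) and *Itpr3* against *Krt19* epithelial cells (adjusted p = 0.111). Dissociation and stress genes summed to 6962 and 8627 CPM, lower than in *Krt19* epithelial cells (18453 CPM, 8 of 9 genes lower) and sustentacular cells (15423 CPM, 8 lower), while 3 of 9 (*Fos*, *Junb* and *Hspa1b*) were higher than in mature VSNs (7093 CPM). The part of the mitochondrial share in the levels was not tested.

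**Figure D5:**
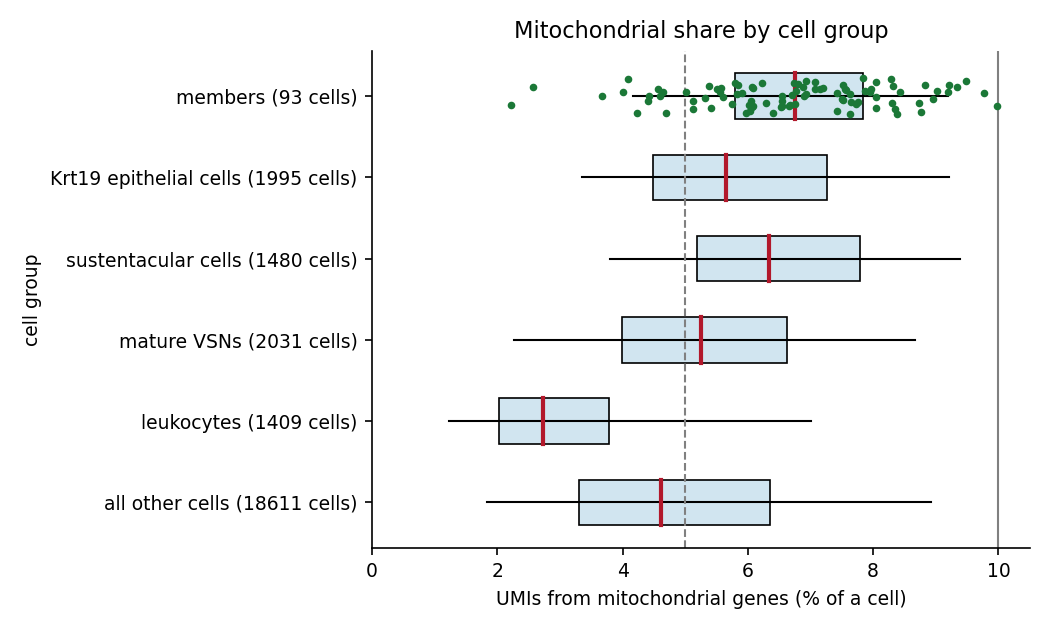
Mitochondrial UMIs in percent of all UMIs of a cell, for the 93 tuft-like cells (points) and the other groups. Boxes span the 25th to the 75th percentile, the red line is the median and whiskers reach the 5th and 95th percentiles; the dashed line marks 5% and the solid line the limit of 10%, and the median of the tuft-like cells was 6.76%.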

How the data were processed

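Whole VNO from wild-type P60 males was profiled in 2 droplet libraries (10x 3′ chemistry). Per the labels, the authors counted UMIs per gene and barcode with Cell Ranger 4 on mm10 and merged the libraries. The deposited values are raw counts for 32285 genes, before the filters of the study, and the depth setting of the merge was not given in the sources used here. Cell Ranger keeps only reads that map to 1 gene, so near-identical receptor genes can be under-counted. The library of each barcode was read from its suffix, which matches the number in the sample label. No column belonged to another series.

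Members and gene lists were chosen with earlier results of these data known. For each cell group, the counts of a library were added up and the sums tested with edgeR 4.0.16 (TMM, glmQLFit, glmQLFTest, R 4.3.3) where a gene had at least 10 UMIs over the sums, and p-values were adjusted by Benjamini-Hochberg with 0.05 as the threshold. Genes used by the rule of either group, V1R, V2R and mitochondrial genes were fitted but not reported. Named genes are those of the lists, the bitter receptors detected, and for each comparison the 12 largest rises and 6 largest falls among called genes that changed alike in both libraries, with at least 50 UMIs in the higher group, leaving out unnamed gene models. Genes named outside this rule are said to be so, and some listed genes are not reported here by name. A fold against 0 UMIs uses 3 UMIs over the group. Scrublet (scanpy 1.11.5, python 3.11.15) called doublets at an expected rate of 8%. Thinning drew 6135 UMIs a cell, the 10th percentile of the tuft-like cells. Intervals are exact binomial at 95% (scipy 1.17.1). Promoters came from the RefSeq table for GRCm38.p6, and positions from the mm10 annotation, which matched 32235 genes.

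Same-numbered sums come from the same library. Their deviations from the group means correlated across genes at 0.0894 (*Krt19* epithelial cells), 0.107 (sustentacular cells) and 0.0731 (mature VSNs), so a fit that blocks on the library was made as well. The counts of the libraries were farther apart than sampling noise in each group (chi-square per degree of freedom 3.95 in the tuft-like cells and 7.59 to 16.6 in the others). Tested on simulated counts, edgeR recovered, at log2 changes of 1, 2, 3 and 4, 54%, 96%, 96% and 100% of the genes changed for *Krt19* epithelial cells (15610 genes, 4.42% of calls false), 66%, 96%, 100% and 98% for sustentacular cells (15282 genes, 3.23%) and 64%, 92%, 94% and 100% for mature VSNs (16372 genes, 3.85%). The simulation changed only a small part of the genes, at random up or down, and changed none with low expected counts. It does not cover changes in a large part of the genes. Other alternatives were DESeq2 1.42.0, RLE size factors, no filter and filterByExpr, leaving out each sum, at most 5% mitochondrial UMIs, doublets left out, thinned cells and at least 3 rule genes. Added after seeing the data were cells with all 5 rule genes, comparison cells meeting only 1 of the 3 definitions, and the alternatives for the rule genes tested in turn.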

Additional observations from a re-analysis of the deposited data

Results flagged for a closer look

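The mitochondrial limit removed barcodes that otherwise met the rule, data used in no comparison. Over 10% mitochondrial UMIs there were 21 such barcodes, 15 in library 1 and 6 in library 2, with a median mitochondrial share of 15.5% (up to 59.8%) and a median of 2981 UMIs. Of these, 11 held all 5 rule genes, 9 held *Pou2f3* and 18 held at least 3 of the 13 other tuft-cell genes. Groups of 2 libraries are too small for a test of single outlying samples.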

How the results depend on the processing

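The number of tuft-like cells was 12 with at most 5% mitochondrial UMIs and 41 to 52 within single libraries. A median share of tuft-like cells with a UMI was taken over the detected genes of the tuft-cell lists, from the taste cascade to acetylcholine synthesis. This median was 37.6%, and was 25% at 5% mitochondrial UMIs and 19.3% in thinned cells (34.6% to 41.5% leaving out a library). Genes called numbered 238, 494 and 1312 at 5% mitochondrial UMIs, 2203, 2722 and 3459 in thinned cells, and 2340 to 3825, 2738 to 4139 and 3821 to 5223 leaving out 1 sum, against *Krt19* epithelial cells, sustentacular cells and mature VSNs. Leaving out library 1 of the comparison group gave 2486, 2969 and 3891 and library 2 gave 2340, 2738 and 3821. Of the calls at 5% mitochondrial UMIs, 25.3% were higher against sustentacular cells and 27.1% against mature VSNs (43.2% and 40.4% at 10%), and the median change of all genes moved by -0.34, -0.33 and -0.58 (log2). The direction turned at 5% mitochondrial UMIs for *Ptgs1* (log2 changes -6.99, -4.69 and -5.14), *Cdh1* against *Krt19* epithelial cells (-0.10), and *Alox5ap* (0.32) and *Il33* (0.83) against mature VSNs, and in comparison cells meeting only 1 definition for *Syt1* (1.22) and *Cldn3* (0.93) against *Krt19* epithelial cells; the cause was not tested. Of 3898 recomputed values for 268 gene results, 3668 kept direction and call, 172 lost the call, 50 gained it and 8 turned. With the library as a replicate block 3928, 4474 and 5708 genes were called and no count of calls moved by over 1.5 times. DESeq2 called 2850, 3362 and 5289 genes and moved the median change of all genes against mature VSNs by 0.151 (log2).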
